A study of Mus musculus with 18 samples.

Results

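The mitochondrial solute carriers of the SLC25 family were followed through left ventricles of wild-type (WT) and Gαq mice fed with or without ertugliflozin. Members were the protein-coding genes of the count table whose GENCODE M21 symbol is Slc25a followed by a number and whose mean raw count over the 18 libraries was at least 10. The rule gave 39 of the 47 protein-coding Slc25a genes, among 55450 genes in the table and 16270 genes tested, and all 39 also passed the filter on low counts. The rule did not use any difference between groups.

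All mice were FVB/N males, and the Gαq mice carried a transgene that overexpresses Gαq, the alpha subunit of a heterotrimeric G protein, in the heart. The promoter that drives it is not given in the sources used here. The diets were control chow (CD) and chow holding ertugliflozin (ERTU) at 0.5 mg/g, an inhibitor of the sodium-glucose cotransporter SGLT2, fed for 16 weeks from 4 weeks of age, and hearts were taken at 20 weeks. RNA sequencing covered 4 WT and 5 Gαq libraries on CD and 5 WT and 4 Gαq libraries on ERTU, with 15383566 to 20908363 counted read pairs each. Levels are given in CPM, the count relative to the effective size of the library, and listed within each group by rising library number: 1, 2, 4 and 5 for WT CD, 11 to 15 for WT ERTU, 6 to 10 for Gαq CD, and 16, 17, 18 and 20 for Gαq ERTU.

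SLC25 proteins are built from repeats of a pair of membrane helices and nearly all sit in the inner mitochondrial membrane. They carry nucleotides, phosphate, keto acids, amino acids, acylcarnitines, cofactors and metals between matrix and cytosol. The heart, which makes most of its ATP in mitochondria, depends on them to send out ATP, to bring in phosphate and fatty acyl groups, and to move reducing equivalents by the malate-aspartate shuttle.

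Gnaq, the check of the labels, lay between 45.5 and 229.7 CPM in the 9 WT libraries, between 1641 and 11672 CPM in the 5 Gαq CD libraries and between 2236 and 5207 CPM in the 4 Gαq ERTU libraries. Gαq CD libraries 7, 8 and 9 had the highest Gnaq levels, 9701, 8045 and 11672 CPM, and the part of Gnaq in the differences between diets in Gαq was not tested. Defining genes of cardiomyocytes summed to 74524 to 112610.0 CPM in all libraries. By genotype, 4 of 10 of them were called lower in Gαq, beside 9.92% of all genes. Of 7 fibroblast markers, 6 were called higher in Gαq, beside 9.72% of all genes. Their summed levels were 1432 to 2907 CPM in WT and 2729.7 to 4049 CPM in Gαq. The mean log2 level of the cardiomyocyte list differed between Gαq and WT by -0.15 on CD and -0.17 on ERTU. In bulk ventricle, fewer cells of a type and less RNA per cell cannot be told apart, and the part of these shifts in the carrier results was not tested. WT CD library 4 and Gαq CD libraries 7, 8 and 9 stood apart in Pdk4, the kinase that shuts pyruvate dehydrogenase, with 105 to 261 CPM against at least 1308 CPM in the other 14 libraries. Results that rest on these 4 libraries are given with and without them.

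Slc25a4, the heart and muscle ADP/ATP carrier ANT1, dominated the family. Per kilobase of exons, its level was 2324 CPM, against 268 for the phosphate carrier Slc25a3, 236 for the oxoglutarate carrier Slc25a11, 186 for the second ADP/ATP carrier Slc25a5 (ANT2) and 120.2 for Slc25a34, a carrier of unsettled substrate. The length joins all annotated exons of a gene, 2353 bases for Slc25a4 and 5550 for Slc25a3. Without it, their mean levels were 5469 and 1488 CPM. Slc25a4 made up 66.9% ± 1.95 (SD, n = 18) of the summed CPM per kilobase of the 39 members, and between 62.5% and 69.8% in single libraries. The next in order were Slc25a13 at 54.4, Slc25a39 at 43.1, Slc25a20 at 38.9 and Slc25a12 at 31.2 CPM per kilobase. The lowest member was Slc25a53 at 0.365 CPM per kilobase. The lowest mean raw counts among members were those of Slc25a47 and Slc25a53, at 52.3 and 52.9, above the limit of 10. The highest among the family genes left out was that of Slc25a31, the ADP/ATP carrier of the male germ line, at 8.06. The plot of levels shows Slc25a4 at the top in each of the 4 groups.

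**Figure D1:**
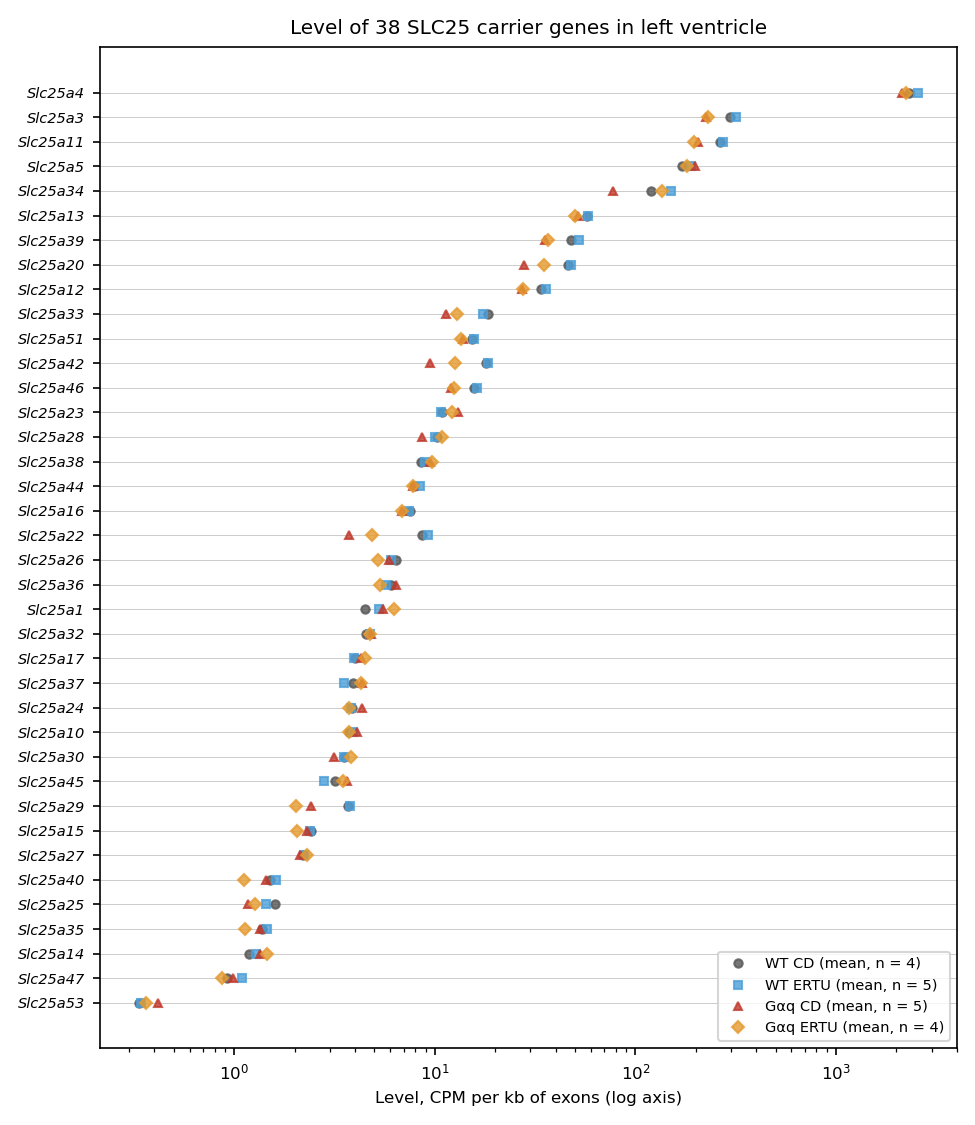
Mean level of 38 of the 39 carrier genes in the 4 groups, in CPM per kilobase of exons on a log axis, ordered by the mean over 18 libraries. Slc25a4 stands at 2324, above Slc25a3 at 268, and the red triangles of Gαq CD lie to the left of both WT symbols for Slc25a34, Slc25a20, Slc25a42 and Slc25a22.

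Summed over the members, the family held 9959 ± 1247 CPM (SD, n = 4) in WT CD, 10827 ± 804 (n = 5) in WT ERTU, 8629 ± 709 (n = 5) in Gαq CD and 9036 ± 743 (n = 4) in Gαq ERTU. The ranges of single libraries overlapped between WT CD, from 8192 to 11129 CPM, and Gαq CD, from 7819 to 9444 CPM. On ERTU they did not, with 9997 to 11843 CPM in WT and 8150.1 to 9909 CPM in Gαq. Slc25a4 took 54.8% ± 2.71 of this sum in WT CD and 58.5% ± 2.28 in Gαq CD.

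Most of the carriers that changed by genotype fell in Gαq hearts. In the model with genotype and diet, 13 of 39 members (33.3%) passed an adjusted p of 0.05 by edgeR's quasi-likelihood test, 11 lower and 2 higher, beside 19.6% of all genes tested (9.92% lower and 9.72% higher). The members' median log2 change was -0.14, beside 0.00377 over all genes, and 26 of 39 members were below 0, beside 49.4% of all genes. Lower members were found among carriers of phosphate, of keto acids, of amino acids, of acylcarnitine, of cofactors and of glutathione, and in Slc25a46 of the outer membrane. Leaving out the 4 libraries low in Pdk4, 10 members passed, 9 of them lower, beside 14.4% of genes.

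**Figure D2:**
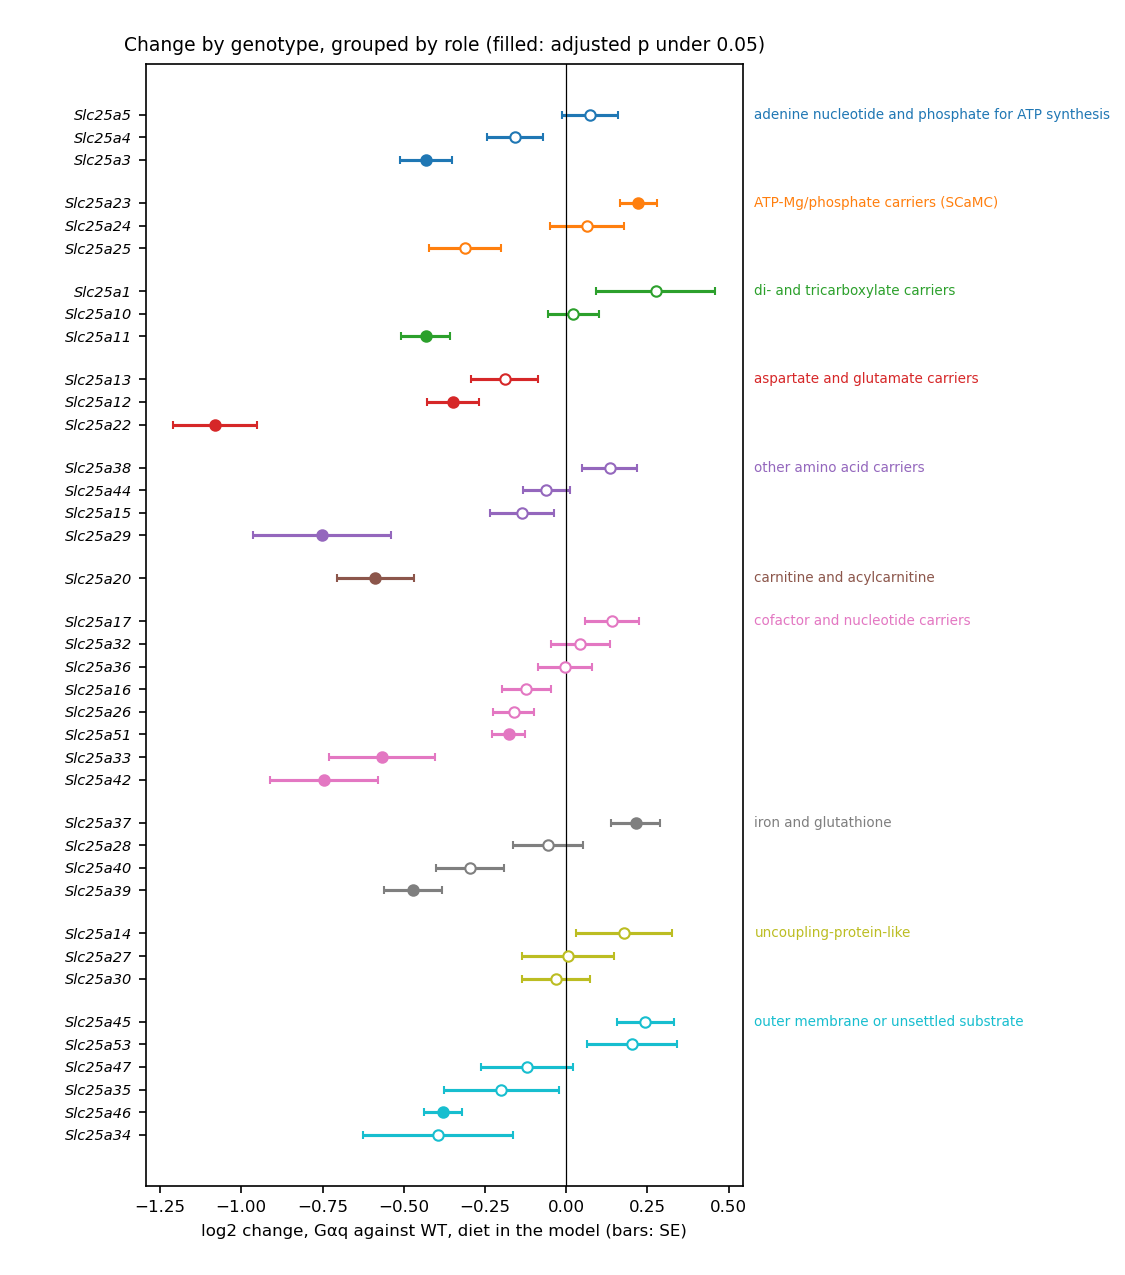
Log2 change between Gαq and WT for 38 of the 39 members, grouped by role, with diet in the model; bars are standard errors and filled points passed an adjusted p of 0.05. The filled points run from Slc25a22 at -1.08 to Slc25a23 at 0.22, with 11 of 13 left of 0.

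The largest fall was that of Slc25a22, a glutamate carrier that lets glutamate enter the matrix with a proton. Slc25a22 was counted at 61, 57.1, 36.4 and 52.9 CPM in WT CD, 64.2, 67.8, 50.7, 42.7 and 52.6 in WT ERTU, 31, 15.9, 17.5, 20.3 and 26.6 in Gαq CD and 30.2, 27.6, 29 and 29.2 in Gαq ERTU. Each of the 9 WT libraries was above each of the 9 Gαq libraries. The log2 change by genotype was -1.08 ± 0.13 (SE, adjusted p = 4.13e-06, edgeR), and without the 4 libraries low in Pdk4 it was -0.96 (adjusted p = 3.41e-06, edgeR). Those libraries, chosen after seeing the data, were the lowest of their groups in Slc25a22, so the second p is no added support. Slc25a18, a close relative of Slc25a22, is no member, at a mean raw count of 2.39.

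The aspartate-glutamate carriers Slc25a12 (aralar) and Slc25a13 (citrin) export aspartate as a limb of the malate-aspartate shuttle. Slc25a12 was counted at 274, 281, 241 and 199 CPM in WT CD, 315, 271, 238, 217 and 277 in WT ERTU, 228, 192, 181, 211 and 189 in Gαq CD and 207, 218, 197 and 187 in Gαq ERTU. WT libraries were mostly the higher ones, but the ranges of WT and Gαq overlapped. The log2 change by genotype was -0.35 ± 0.08 (SE, adjusted p = 0.00372, edgeR). Slc25a13 was counted at 232, 240.1, 237 and 166 CPM in WT CD, 215, 244, 224, 154 and 268 in WT ERTU, 229, 184, 199.8, 202 and 167 in Gαq CD and 173, 232, 189 and 164 in Gαq ERTU. These ranges overlapped widely, and the log2 change of -0.19 ± 0.10 was not called (adjusted p = 0.218, edgeR). Slc25a11, which trades oxoglutarate for malate in the same shuttle, fell by 0.43 ± 0.08 on the log2 scale (SE, adjusted p = 0.000317, edgeR). Slc25a11 was counted at 595, 629, 576 and 454 CPM in WT CD, 612, 632, 593, 478 and 596 in WT ERTU, 479.5, 388, 439.5, 454 and 404 in Gαq CD and 427, 438, 437 and 362 in Gαq ERTU. On ERTU the genotypes did not overlap, while on CD WT library 5 was level with the Gαq libraries. The antisense gene Rnf167 overlaps 8.92% of the exon length of Slc25a11, and whether antisense reads entered the counts there was not tested. The citrate carrier Slc25a1 (0.28 ± 0.18, adjusted p = 0.328) and the dicarboxylate carrier Slc25a10 (0.02 ± 0.08, adjusted p = 0.876) were not called by edgeR.

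Among the carriers that feed ATP synthase, the phosphate carrier fell while the ADP/ATP carriers did not pass the test. Slc25a3 was counted at 1807, 1687, 1689 and 1398 CPM in WT CD, 2007, 1813, 1866, 1446 and 1712 in WT ERTU, 1358, 1203, 1024, 1350.1 and 1305 in Gαq CD and 1457, 1179, 1271 and 1216 in Gαq ERTU. On CD every WT library exceeded every Gαq library, and on ERTU the only crossing was between WT library 14 and Gαq library 16. Slc25a3 changed by -0.43 ± 0.08 (SE, adjusted p = 0.000558, edgeR). Slc25a4 was counted at 6229, 5521, 5929 and 4222 CPM in WT CD, 6519, 6126, 6230.3, 5849 and 5493 in WT ERTU, 5446, 4518, 5208, 4533 and 5547 in Gαq CD and 5869.5, 4495, 5500.5 and 5209.5 in Gαq ERTU. The lowest of all 18 values was in a WT library, and the ranges overlapped. The log2 change of Slc25a4 was -0.16 ± 0.09 (SE, adjusted p = 0.219, edgeR). Slc25a5 was counted at 336, 255, 312 and 223 CPM in WT CD, 350.0, 297, 273, 314 and 328 in WT ERTU, 337, 318, 384, 313 and 283 in Gαq CD and 321, 276, 299 and 294 in Gαq ERTU. Slc25a5 differed by 0.07 ± 0.09 (SE, adjusted p = 0.611, edgeR), with ranges that overlapped in both diets.

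Slc25a20, the single carrier that exchanges acylcarnitines for carnitine and so admits long-chain fatty acids to oxidation, fell. Slc25a20 was counted at 266, 251, 170.2 and 202 CPM in WT CD, 268, 251, 241, 212 and 180.2 in WT ERTU, 152, 103, 115, 117 and 185 in Gαq CD and 190.0, 158, 177 and 151 in Gαq ERTU. The lowest WT value was that of library 4 and the lowest Gαq values were those of libraries 7, 8 and 9, and the genotypes overlapped. Its log2 change by genotype was -0.59 ± 0.12 (SE, adjusted p = 0.00109, edgeR), and -0.47 without those 4 libraries (adjusted p = 0.00351, edgeR). They were chosen after seeing the data, and the smaller change follows from leaving them out.

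Slc25a42 brings coenzyme A into the matrix, where it is the acyl group carrier. Slc25a42 was counted at 114, 130.3, 73.5 and 116 CPM in WT CD, 106, 143, 119, 83.5 and 103 in WT ERTU, 83.6, 38.7, 31.8, 49.6 and 79 in Gαq CD and 76.5, 81.5, 74.5 and 70.9 in Gαq ERTU. WT library 4 was again the low one of its group, below Gαq CD libraries 6 and 10, while on ERTU the genotypes did not overlap. The log2 change was -0.75 ± 0.17 (SE, adjusted p = 0.00273, edgeR), and -0.56 without the 4 libraries (adjusted p = 0.000706, edgeR). Those libraries were chosen after seeing the data and were the lowest of their groups in Slc25a42. The smaller change and the smaller p thus follow from the choice of libraries. Of the 9 carriers of cofactors and nucleotides, 3 passed the test by genotype, all lower, beside 19.6% of all genes called and 9.92% lower. The pyrimidine nucleotide carrier Slc25a33 changed by -0.57 ± 0.16 (SE, adjusted p = 0.0175, edgeR), and the NAD carrier Slc25a51 by -0.18 ± 0.05 (SE, adjusted p = 0.0181, edgeR). Neither passed without the 4 libraries, at adjusted p = 0.0692 and 0.109. Slc25a33 was counted at 52.6, 31.1, 28.7 and 25.9 CPM in WT CD, 53.5, 31.2, 28.4, 20.2 and 31.7 in WT ERTU, 19.8, 22.5, 21, 23.5 and 20.4 in Gαq CD and 33.3, 19.2, 25.3 and 19.3 in Gαq ERTU. WT CD library 1, WT ERTU library 11 and Gαq ERTU library 16 stood above the rest, and without WT CD library 1 the change was -0.43 (adjusted p = 0.0511, edgeR). Antisense exons of Gm13068 cover 14.89% of the exon length of Slc25a33.

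The regions before the start of 4 members are shown for the motifs they hold. Promoter sequences of build GRCm38.p6 came from RefSeq, and 30 of 39 members matched an entry. The 250 bases before each start were searched on both strands for 6 motifs, and the stretches printed here, at most 200 bases from 5′ to 3′ on the gene's strand, end at or before the annotated gene. Capitals mark matches. Slc25a34 (chr4:141623835-141624034, minus strand) was chosen as the only member with the estrogen-related receptor site AAGGTCA. That is 1 of 30 members (3.33%), below the 4.7% of 27025 genes that hold it. Slc25a42 (chr8:70212306-70212505, minus strand) shows repeated CCAAT boxes, a motif of 17 of 30 members (56.7%) and of 37.5% of all genes. Slc25a20 (chr9:108661888-108662087, plus strand) and Slc25a3 (chr10:91124060-91124217, minus strand) hold the ETS motif CCGGAAG, found in 5 of 30 members (16.7%) and in 7.83% of genes. Slc25a3 also holds the NRF1 motif, which is GCGC on both sides of an A and any base, found in 1 of 30 members (3.33%) and in 4.23% of genes.
Slc25a34: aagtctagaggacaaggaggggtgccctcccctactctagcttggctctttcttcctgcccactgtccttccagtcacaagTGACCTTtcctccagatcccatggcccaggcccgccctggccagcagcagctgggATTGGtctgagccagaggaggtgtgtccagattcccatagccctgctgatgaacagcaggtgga
Slc25a42: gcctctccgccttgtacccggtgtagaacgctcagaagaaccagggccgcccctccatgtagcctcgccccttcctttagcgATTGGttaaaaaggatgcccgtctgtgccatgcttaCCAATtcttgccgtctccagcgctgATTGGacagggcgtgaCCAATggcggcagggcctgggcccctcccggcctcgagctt
Slc25a20: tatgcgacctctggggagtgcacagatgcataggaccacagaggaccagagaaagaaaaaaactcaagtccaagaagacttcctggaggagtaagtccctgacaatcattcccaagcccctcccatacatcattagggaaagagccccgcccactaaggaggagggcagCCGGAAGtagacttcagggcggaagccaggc
Slc25a3: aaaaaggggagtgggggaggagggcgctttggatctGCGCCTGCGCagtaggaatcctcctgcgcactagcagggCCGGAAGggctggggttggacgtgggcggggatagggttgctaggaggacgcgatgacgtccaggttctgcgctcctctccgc
The E-box CACGTG, which reads the same on both strands, was in 6 of 30 members (20.0%) beside 6.86% of genes. The DR1 repeat, which is AGGTCA on both sides of any base and so shares letters with the receptor site above, was in 0 of 30 members and 0.0407% of genes. Of the 9 lower members with an entry, 2 held the ETS motif and 5 the CCAAT box. A match describes letters only.

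The glutathione carrier Slc25a39 and its paralog Slc25a40 differed in level and in call. Slc25a39 was counted at 151, 113, 129 and 134 CPM in WT CD, 164, 146, 153, 130.4 and 127 in WT ERTU, 103, 77.6, 88.2, 94.7 and 123 in Gαq CD and 108, 82, 103 and 113 in Gαq ERTU. On ERTU the genotypes did not overlap, and on CD Gαq library 10 lay above WT library 2. Slc25a39 changed by -0.47 ± 0.09 (SE, adjusted p = 0.000611, edgeR). Slc25a40 was counted at 12.4, 13.7, 14.1 and 10.4 CPM in WT CD, 14.8, 12.4, 13.5, 11.3 and 15.7 in WT ERTU, 13.4, 14.8, 11, 10.7 and 10.7 in Gαq CD and 8.29, 9.54, 10.2 and 9.28 in Gαq ERTU. Its change by genotype was -0.30 ± 0.10 (SE) with an adjusted p of 0.050009 by edgeR, and it passed with DESeq2 (adjusted p = 0.0361) and with voom (adjusted p = 0.0194). Of the iron carriers, Slc25a37 (mitoferrin 1, which supplies heme synthesis in red cell precursors) was higher by 0.21 ± 0.08 (SE, adjusted p = 0.0498, edgeR). That call was lost with median-of-ratios size factors (adjusted p = 0.0506, edgeR) and without the 4 libraries (adjusted p = 0.105, edgeR). Red blood cell markers, among which Hba-a2 stayed under 1 CPM in every library, differed in mean log2 level by -0.60 on CD and 0.17 on ERTU, and their part was not tested. Slc25a28 (mitoferrin 2) changed by -0.06 ± 0.11 (SE, adjusted p = 0.765, edgeR).

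Slc25a46, a protein of the outer membrane that takes part in the shape of mitochondria, had the second smallest p of the family. Slc25a46 was counted at 88.4, 87.4, 85.3 and 80.2 CPM in WT CD, 96.7, 88.3, 83.6, 90.7 and 80.7 in WT ERTU, 76.7, 68.3, 57.8, 63.7 and 61.8 in Gαq CD and 66, 71, 66.9 and 66.2 in Gαq ERTU. Every WT library was above every Gαq library, and the change was -0.38 ± 0.06 (SE, adjusted p = 6.55e-05, edgeR). Exons of the antisense gene B930094E09Rik cover 7.06% of its exon length. Slc25a29, a carrier of basic amino acids, changed by -0.75 ± 0.21 (SE, adjusted p = 0.0153, edgeR). Slc25a29 was counted at 8.48, 6.49, 16.2 and 7.28 CPM in WT CD, 9.05, 8.42, 8.12, 8.29 and 15.3 in WT ERTU, 4.49, 7.45, 5.81, 9.66 and 4.08 in Gαq CD and 7.62, 3.1, 5.25 and 5.19 in Gαq ERTU. WT CD library 4 and WT ERTU library 15 were high within their groups, and without WT CD library 4 the change was -0.59 (adjusted p = 0.0542, edgeR). The other gene that rose was Slc25a23, a calcium-regulated ATP-Mg/phosphate carrier, by 0.22 ± 0.06 (SE, adjusted p = 0.00914, edgeR). Slc25a23 was counted at 55, 60, 60.4 and 55.8 CPM in WT CD, 53.7, 62.5, 61.1, 54 and 52.2 in WT ERTU, 73.2, 60.1, 63.9, 76.3 and 71.7 in Gαq CD and 63.4, 65.5, 65.8 and 63.8 in Gαq ERTU. The Gαq values exceeded all WT values on ERTU and crossed them on CD. None of the 3 uncoupling-protein-like carriers Slc25a14, Slc25a27 and Slc25a30 was called by edgeR (unadjusted p = 0.239, 0.968 and 0.764).

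**Figure D3:**
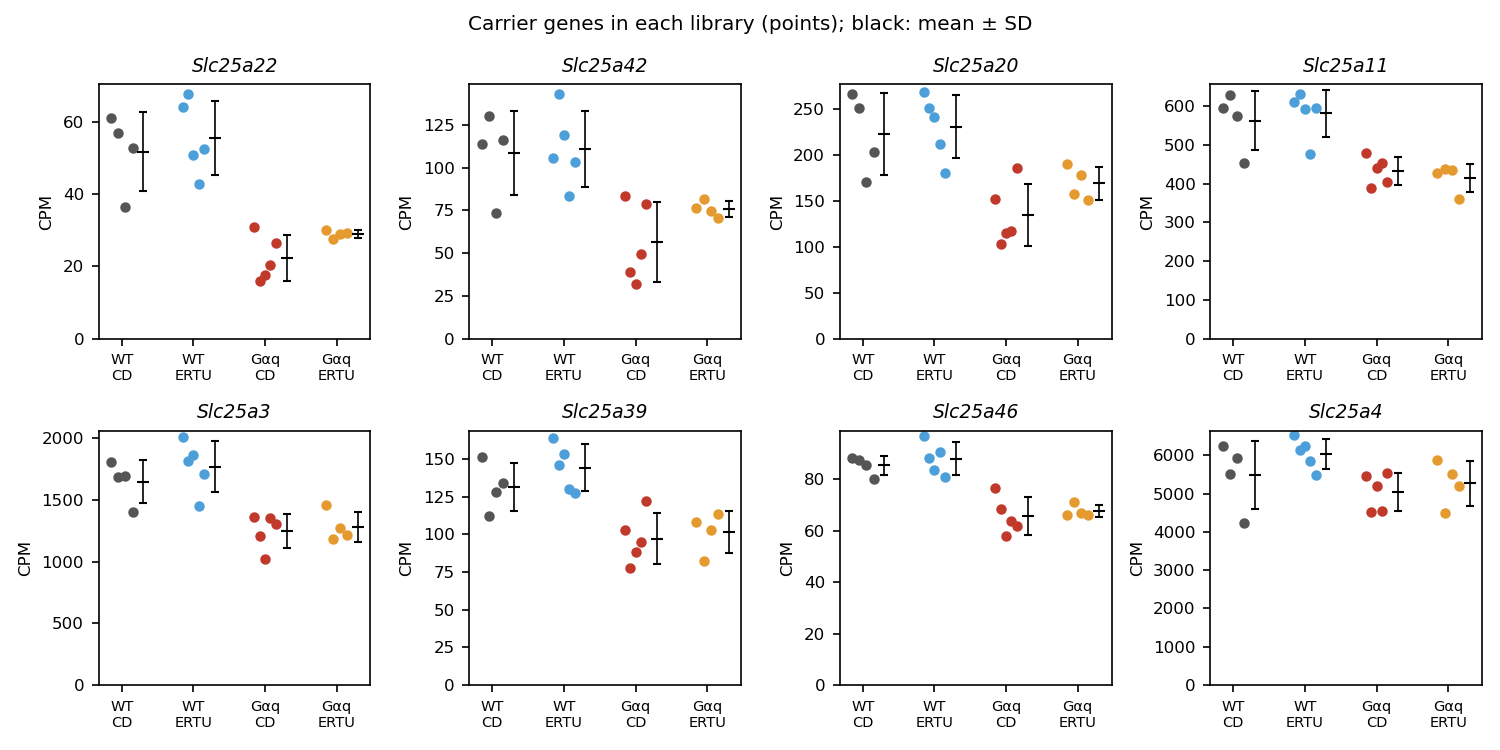
CPM in each library (points) for 8 members by group, with the mean and SD of the group in black, on axes from 0. Slc25a22 and Slc25a46 show no overlap between WT and Gαq, while Slc25a4 overlaps widely.

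The genotype effect was next read within each diet. These comparisons share no library, but both use the same estimate of spread, made from the libraries of all groups. On CD, 7 members passed, all lower (17.9%, beside 8.1% of genes, 4.1% lower): Slc25a22, Slc25a46, Slc25a20, Slc25a42, Slc25a11, Slc25a39 and Slc25a3. Leaving out WT CD library 1, WT CD library 4 or Gαq CD library 8 left 4. Without the 4 libraries low in Pdk4, which leaves 3 WT and 2 Gαq libraries on CD, 1 member passed, Slc25a22, beside 1.9% of genes. On ERTU, 7 members passed, all lower (17.9%, beside 8.17% of genes, 4.24% lower): Slc25a22, Slc25a46, Slc25a11, Slc25a40, Slc25a3, Slc25a39 and Slc25a12. Both diets called 5 of the same genes, Slc25a11, Slc25a22, Slc25a3, Slc25a39 and Slc25a46, and 31 of 39 members had the same sign. The shares of all genes called in both diets or with the same sign were not counted, so nothing particular to the members is read from this.

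Slc25a22 changed by -1.22 ± 0.18 (SE) on CD and -0.94 ± 0.18 on ERTU, and Slc25a46 by -0.38 ± 0.08 in both. Slc25a11 changed by -0.38 ± 0.11 and -0.49 ± 0.11, Slc25a3 by -0.40 ± 0.12 and -0.47 ± 0.12, and Slc25a39 by -0.44 ± 0.13 and -0.50 ± 0.13. On CD, the calls of Slc25a11, Slc25a3 and Slc25a39 were near the threshold (adjusted p = 0.0359, 0.0395 and 0.0391, edgeR) and were lost in 7, 7 and 8 of 18 fits with 1 library left out. That of Slc25a22 held in all of these fits. Slc25a20 changed by -0.73 ± 0.16 on CD (adjusted p = 0.00801, edgeR) and -0.45 ± 0.17 on ERTU (adjusted p = 0.109, edgeR), and Slc25a42 by -0.94 ± 0.23 (adjusted p = 0.0147, edgeR) and -0.55 ± 0.24 (adjusted p = 0.171, edgeR). The difference between diets was not called for either, with interaction terms of 0.28 ± 0.23 and 0.39 ± 0.33. Without the 4 libraries low in Pdk4, the CD values were -0.51 and -0.56, beside -0.45 and -0.55 on ERTU. Those libraries were the lowest of their groups in both genes, so the CD values follow in part from leaving them out. Slc25a40 changed by -0.06 ± 0.13 on CD and -0.53 ± 0.13 on ERTU (adjusted p = 0.0137, edgeR), and its interaction of -0.47 ± 0.18 was not called (unadjusted p = 0.0198, adjusted p = 0.9997, edgeR). Next in order of p for the interaction were Slc25a28 (0.35 ± 0.20, unadjusted p = 0.09905, edgeR) and Slc25a5 (-0.29 ± 0.17, unadjusted p = 0.101, edgeR), neither called.

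Overlap between single libraries was counted for the same contrasts. On CD, 4 members, Slc25a22, Slc25a3, Slc25a33 and Slc25a46, were lower in every Gαq library than in any WT library, beside 9.29% of genes that did not overlap in either direction (4.6% lower). On ERTU, 9 members were lower and 1, Slc25a23, was higher without overlap, beside 10.9% of genes (5.49% lower and 5.4% higher). Among the 9 were Slc25a11, Slc25a22, Slc25a26, Slc25a29, Slc25a39, Slc25a40, Slc25a42 and Slc25a46.

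No carrier was called for ertugliflozin by edgeR. For diet over both genotypes, 0 of 39 members passed, as did 0.0% of genes, and 1 member had an unadjusted p under 0.05 (2.56%, beside 7.7% of genes). For ERTU in WT, 0 members passed (0.0% of genes), with 0 at an unadjusted p under 0.05 (2.24% of genes). For ERTU in Gαq, 0 passed (0.00615% of genes), with 5 at an unadjusted p under 0.05 (12.8%, beside 7.62% of genes). The interaction called 0 (0.0% of genes), with 1 at an unadjusted p under 0.05 (2.56%, beside 1.92% of genes). DESeq2 and voom also called 0 members in these 4 comparisons. In WT, 26 of 39 members were higher on ERTU, beside 51.5% of genes, and in Gαq 20 of 39, beside 48.9%. The sign was the same in both genotypes for 21 of 39 members, and the share over all genes was not counted.

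The smallest p for diet was that of Slc25a34, the fifth most abundant member. Slc25a34 was counted at 365, 399.7, 163 and 355 CPM in WT CD, 476, 499, 419, 409.9 and 211 in WT ERTU, 332, 106, 129, 136 and 332 in Gαq CD and 399, 317, 354 and 373 in Gαq ERTU. WT CD library 4, WT ERTU library 15 and Gαq CD libraries 7, 8 and 9 were the low ones, and the remaining libraries lay between 317 and 499 CPM. Its log2 change was 0.57 ± 0.23 for diet (SE, unadjusted p = 0.0230, adjusted p = 0.639, edgeR), 0.33 ± 0.33 for ERTU in WT and 0.80 ± 0.33 for ERTU in Gαq (unadjusted p = 0.0231, adjusted p = 0.653, edgeR). Without the 4 libraries low in Pdk4, the values were 0.11 for diet, 0.11 for ERTU in WT and 0.12 for ERTU in Gαq. These libraries, all on CD, were also the lowest of all in Slc25a34, so smaller values follow from leaving them out. In Gαq, Slc25a22 differed on ERTU by 0.38 ± 0.18, Slc25a20 by 0.33 ± 0.16, Slc25a42 by 0.42 ± 0.23 and Slc25a28 by 0.33 ± 0.14, none called by edgeR. These became 0.01, 0.0014, -0.10 and 0.05 without the 4 libraries. Gαq CD libraries 7, 8 and 9 were the lowest of their group in each of these genes, and only libraries 6 and 10 remained. The smaller values thus follow from the choice of libraries. Other members went down on ERTU in Gαq, where 20 were higher and 19 lower. Slc25a36 changed by -0.26 ± 0.12 (unadjusted p = 0.0373, adjusted p = 0.653, edgeR). Slc25a26 changed by -0.18 ± 0.09 (unadjusted p = 0.0602, adjusted p = 0.656, edgeR).

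Slc25a40 was the 1 member whose Gαq groups did not overlap between diets, beside 1.6% of genes, while in WT 0 members and 0.756% of genes did not. Every Gαq ERTU library (8.29 to 10.2 CPM) was below every Gαq CD library (10.7 to 14.8 CPM). Its change was -0.37 ± 0.13 (SE, unadjusted p = 0.00998, adjusted p = 0.653, edgeR), and -0.37 without the 4 libraries. In WT, the 3 members with the smallest p for ERTU were Slc25a45 (-0.18 ± 0.13), Slc25a37 (-0.14 ± 0.11) and Slc25a5 (0.15 ± 0.12), none called by edgeR. With 1 library left out in turn, Slc25a45 ran from -0.24 (without WT CD library 1) to -0.08 (without WT CD library 5), Slc25a37 from -0.19 (without WT CD library 2) to -0.10 (without WT CD library 1), and Slc25a5 from 0.05 (without WT CD library 5) to 0.25 (without WT CD library 1). Slc25a26 and Slc25a36, which followed Slc25a34 in order of p for diet, differed by -0.13 ± 0.06 and -0.17 ± 0.08. The mean log2 levels of fat and of atrial markers were 1.55 and 1.72 higher in Gαq ERTU than in Gαq CD, but 0 of the 4 fat and 0 of the 3 atrial genes tested passed by edgeR (adjusted p = 0.653 for Adipoq). The fitted log2 changes of the atrial genes Sln, Myl4 and Myl7 were 0.08, 0.15 and 0.27. Lep and Bmp10 were under 1 CPM in every library, and the part of these markers in the carrier values was not tested. Summed fat markers ran from 1.69 to 42.8 CPM in Gαq CD and from 15.2 to 106 CPM in Gαq ERTU, and summed atrial markers from 4.73 to 703 CPM and from 24.2 to 482 CPM.

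**Figure D4:**
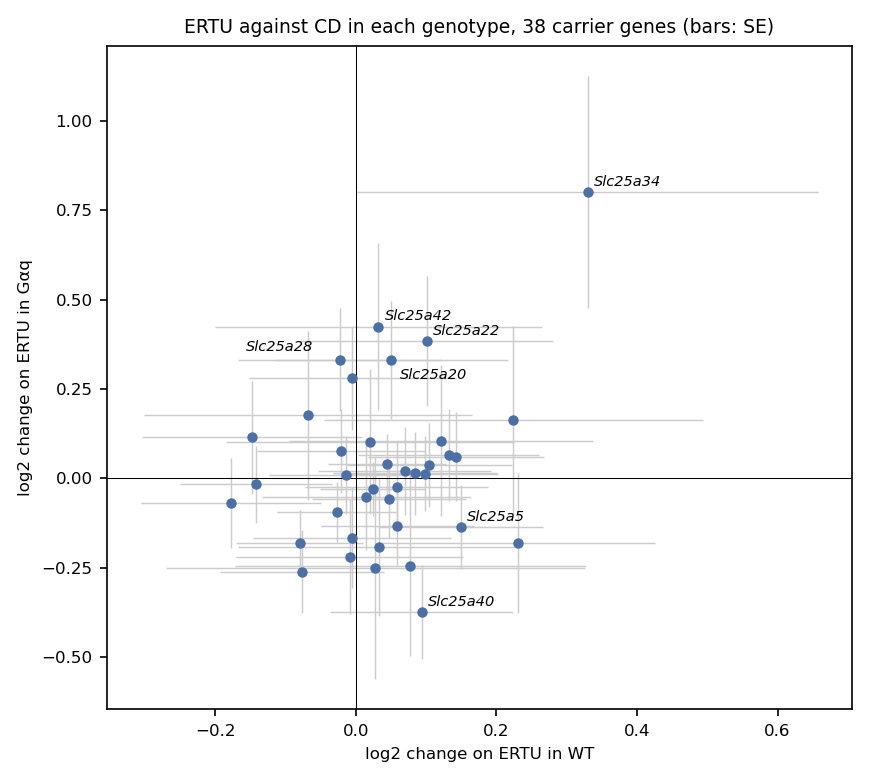
Log2 change on ERTU in WT (horizontal) and in Gαq (vertical) for 38 of the 39 members, with standard errors as grey bars. Slc25a34 lies at 0.33 and 0.80, and no point passed the adjusted test in either genotype.

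Beside the carriers, the libraries low in Slc25a34 were low in Ucp3 and Pdk4, apart from WT ERTU library 15. Ucp3 was counted at 229, 239.8, 23.1 and 187 CPM in WT CD, 257, 220.1, 175, 123 and 117 in WT ERTU, 79.7, 8.23, 14.8, 10.4 and 105 in Gαq CD and 130.1, 61.2, 86.5 and 82.5 in Gαq ERTU. Ucp3, a carrier family protein of muscle under another symbol, was thus low in WT CD library 4 and in Gαq CD libraries 7, 8 and 9. Pdk4 was counted at 3976, 3504, 166 and 3500.4 CPM in WT CD, 6869, 4200.2, 3194, 3093 and 1677 in WT ERTU, 1873, 150.4, 261, 105 and 1818 in Gαq CD and 2041, 1308, 1508 and 2471 in Gαq ERTU. The same 4 libraries were low in Pdk4. In them Slc25a34 was at 106 to 163 CPM, Slc25a42 at 31.8 to 73.5 CPM, Slc25a20 at 103 to 170.2 CPM and Slc25a22 at 15.9 to 36.4 CPM. Slc25a4 was at 4518 to 5929 CPM there, within the range of the other libraries of all groups. Within Gαq CD, however, libraries 7, 8 and 9 were its lowest, at 4518, 5208 and 4533 CPM. Libraries 6 and 10 had 5446 and 5547 CPM. These genes were picked after their values were seen, and the cause of the shared pattern was not tested.

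**Figure D5:**
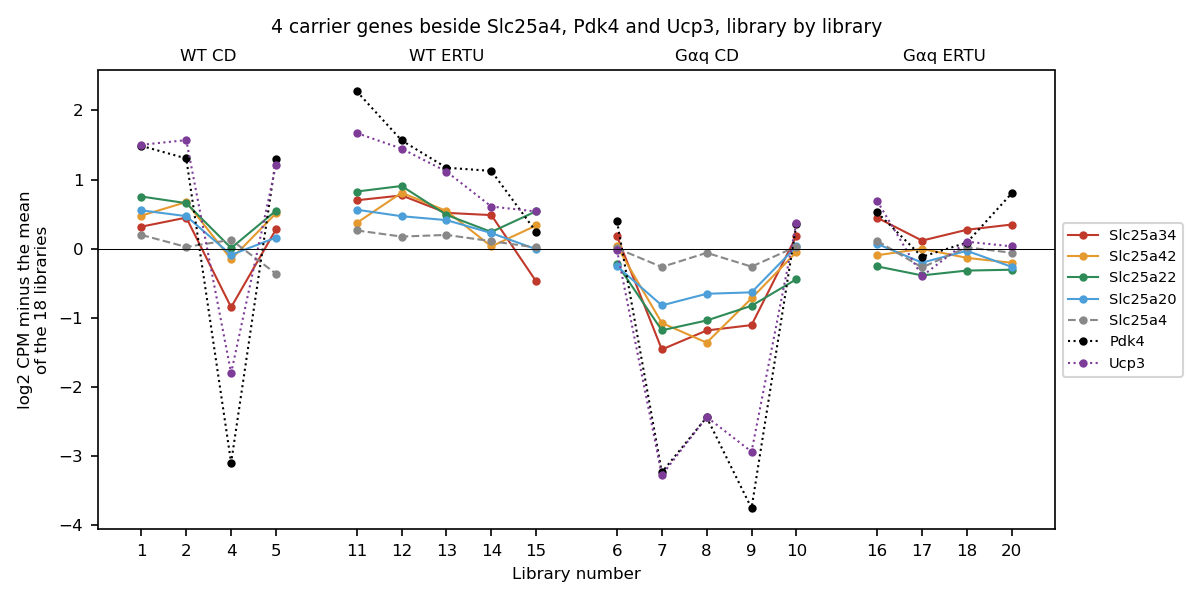
Log2 CPM of 4 carriers, Slc25a4, Pdk4 and Ucp3 in each library, minus the mean of the 18 libraries; lines join libraries of a group and carry no order. The dips in WT CD library 4 and Gαq CD libraries 7, 8 and 9 are shared by Slc25a34, Slc25a42, Slc25a20, Slc25a22, Pdk4 and Ucp3. Slc25a4 stays within the range of the libraries of all groups there, though libraries 7, 8 and 9 are its lowest in Gαq CD.

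Close paralogs were set against each other by their log2 ratio within each library, with 12 exact permutation tests (2-sided, labels permuted within the other factor, 15876 splits) over 6 pairs and 2 factors. None passed after adjustment over the 12. Slc25a5 held 6.85% ± 0.437 (SD, n = 4) of the per-kilobase sum of Slc25a5 and Slc25a4 in WT CD, 6.9% ± 0.747 (n = 5) in WT ERTU, 8.52% ± 1.09 (n = 5) in Gαq CD and 7.5% ± 0.403 (n = 4) in Gαq ERTU. The ratio was higher in Gαq by 0.23 on the log2 scale (exact permutation p = 0.00932, adjusted p = 0.0559). Slc25a13 held 62.9% ± 1.77 (n = 4) of its pair with Slc25a12 in WT CD and 65.4% ± 1.86 (n = 5) in Gαq CD, a log2 difference by genotype of 0.16 over both diets (exact permutation p = 0.0560, adjusted p = 0.168). Slc25a36, the other pyrimidine nucleotide carrier, held 25.9% ± 6.46 (n = 4) of its pair with Slc25a33 in WT CD and 35.9% ± 3.22 (n = 5) in Gαq CD (log2 difference over both diets 0.51, exact permutation p = 0.0214, adjusted p = 0.0857). Slc25a40 held 2.45% to 5.88% of its pair with Slc25a39, and Slc25a37 20.4% to 41.5% of its pair with Slc25a28, over single libraries. The ratio of Slc25a22 to Slc25a18 differed by -0.86 (exact permutation p = 0.00523, adjusted p = 0.0559), with Slc25a18 at a mean raw count of 2.39.

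Related genes outside the symbol rule were counted from lists. By genotype, 19.6% of all genes tested were called, 9.92% lower and 9.72% higher, beside which the counts here stand. Of 4 carrier family proteins with other symbols that were tested, Ucp3 was lower by genotype at -1.47 ± 0.46 (SE, adjusted p = 0.0268, edgeR). Without the 4 libraries low in Pdk4 its change was -1.08 ± 0.19. Those libraries also held the lowest Ucp3 values, so the smaller standard error follows from the choice of libraries. Mtch1, an outer membrane protein, was higher at 0.20 ± 0.06 (adjusted p = 0.0165, edgeR), and Ucp2 and Mtch2 were not called. Of 19 other mitochondrial transporters, 5 were lower and 2 higher. The pyruvate carrier subunit Mpc2 changed by -0.56 ± 0.08 (SE, adjusted p = 2.79e-05, edgeR), while its partner Mpc1 changed by -0.04 ± 0.10 (adjusted p = 0.825, edgeR). The voltage-dependent anion channel Vdac1 of the outer membrane fell by 0.29 ± 0.07 on the log2 scale (adjusted p = 0.00437, edgeR). The others lower were Letm1, Abcb8 and Abcb10, and the higher ones were Sfxn1, a serine carrier, and Tspo. Of 10 genes that bring carrier proteins into the inner membrane through the TIM22 pathway, 4 were lower (Tomm40, Tomm70a, Timm10 and Timm29) and 0 higher by edgeR. For diet, 0 genes of these 3 lists were called by edgeR, as were 0.0% of all genes.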

How the data were processed

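Left ventricular RNA was sequenced in 18 libraries from 4 groups of mice. The authors aligned read pairs of poly(A)-selected libraries with STAR 2.6.0c and deposited raw counts per Ensembl gene from featureCounts (Subread 1.6.2), together with log2-like variance-stabilized values that the authors made with DESeq2 (1.23.10 per the labels). The second table served only as an alternative for paralog ratios. Columns were matched to groups by name. Their numbers run across the whole table and were not linked to the numbers in the labels. Counting is stated to use the strand of the reads, and the kit is not named as one that keeps strand. Antisense overlap is given above for Slc25a11, Slc25a33 and Slc25a46. Among other members it covered 31.3% of the exon length of Slc25a35 (Rangrf), 6.6% of Slc25a10 (Gm11788) and 6.33% of Slc25a37 (Gm31748). It covered 3.17% of Slc25a23 (Gm17168) and 3.0% of Slc25a26 (Lrig1).

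Symbols and positions came from GENCODE M21 on GRCm38 (55190 of 55450 IDs matched, 99.5%). The counts went into edgeR 4.0.16 in R 4.3.3, with these steps: filterByExpr on the 4 groups, TMM scaling (factors 0.9253 to 1.0691) and quasi-likelihood F tests for 7 comparisons. Genes left out held 0.0906% of counts. Genotype and diet came from an additive model, the others from a model with 1 mean per group. Standard errors are the log2 change divided by the square root of F. Adjusted p-values follow Benjamini and Hochberg over 16270 genes. They rest on the spread between libraries of separate samples, estimated over all groups and shared in part between genes. Log2 CPM used a prior count of 2. Ranks and paralog shares were taken per kilobase of exons. That length is the union of all annotated exons of a gene, so these values depend on the isoforms annotated.

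On simulated counts for genotype over 16270 genes, 195 of 200 genes changed by 1 log2 unit were recovered with 16 false calls. The changed genes were drawn only from those above a minimum mean level. This recovery does not describe smaller changes, such as those of most called members, or comparisons between single groups. Library pairs of a group differed by more than sampling noise (chi-square per degree of freedom 11.2 to 51.9). DESeq2 1.42.0 and limma 3.58.1 (voom) were alternatives.

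The members and lists were chosen with earlier results of these data known. Described genes were the called members, the 5 highest per kilobase, those with the smallest p for diet, ERTU and interaction, and paralog pairs. The 8 members with the smallest p by genotype and Slc25a4, Slc25a5 and Slc25a13 have values in every library. Values of Slc25a23, Slc25a29, Slc25a33, Slc25a34, Slc25a40, Ucp3 and Pdk4 were added after they were seen. Proteins were not used here. The values of 1 member are not reported here and it is left out of the plots, though counts over the 39 members include it.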

Additional observations from a re-analysis of the deposited data

Results flagged for a closer look

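In groups of 4 or 5 libraries, 8 of 152 sets of values, from 38 members, had 1 library far from the rest by Dixon's ratio of gap to range, where chance alone gives 7.6. Slc25a11 was low in WT ERTU library 14, at 478 CPM against 593 to 632 in the others (ratio 0.746), and in Gαq ERTU library 20, at 362 against 427 to 438 CPM (ratio 0.865). Slc25a13 was low in WT CD library 5, at 166 against 232 to 240.1 CPM (ratio 0.890). Slc25a30 was high in the same WT CD library 5, at 19.3 against 15 to 15.5 CPM (ratio 0.876). In Gαq CD library 9, Slc25a10 was high at 18.1 against 12.3 to 13.5 CPM (ratio 0.790). Slc25a29 was high in WT ERTU library 15, at 15.3 against 8.12 to 9.05 CPM (ratio 0.869). Slc25a46 was high in Gαq ERTU library 17, at 71 against 66 to 66.9 CPM (ratio 0.832), and Slc25a37 in Gαq CD library 7, at 31.2 against 24.4 to 25.1 CPM (ratio 0.893).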

How the results depend on the processing

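The number of members called on CD, 7, became 4 with a fit on only the 2 groups compared (beside 6.42% of genes) and 1 without the 4 libraries low in Pdk4 (1.9% of genes), an alternative chosen after seeing the data that leaves 5 libraries on CD. On ERTU, 7 became 12 under voom (16.9% of genes). With 1 library left out in turn, the counts were 12 to 16 for genotype (17% to 21.3% of genes), 4 to 8 on CD (4.76% to 8.69%) and 5 to 8 on ERTU (5.72% to 10.5%). Genotype gave 12 members with median-of-ratios size factors (19.6% of genes), 11 with no filter (9.58%), 17 with DESeq2 (21.8%) and 18 with voom (24%). Diet, ERTU in either genotype and the interaction gave 0 under every alternative run.

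For single genes, Slc25a11, Slc25a3 and Slc25a39 on CD lost the call in the 2-group fit (adjusted p = 0.0803, 0.0864 and 0.0756, edgeR), and Slc25a12 on ERTU in that fit (adjusted p = 0.0622) and in 12 of 18 fits with 1 library left out. Slc25a20 and Slc25a42 on ERTU gained one under voom (adjusted p = 0.0261 and 0.0249). The call of Slc25a37 by genotype was lost in 13 of 18 such fits. Other calls lost with 1 library left out were Slc25a42 on CD (WT CD library 2, adjusted p = 0.0610), Slc25a3 on ERTU (Gαq ERTU library 20, adjusted p = 0.0556), Slc25a39 on ERTU (Gαq ERTU library 17, adjusted p = 0.0652), Slc25a29 by genotype (WT CD library 4, adjusted p = 0.0542) and Slc25a33 by genotype (WT CD library 1, adjusted p = 0.0511). Slc25a40 by genotype gained a call in 5 such fits, and Slc25a12 on CD in 1 (WT CD library 5, adjusted p = 0.0321). Without the 4 libraries, diet turned to -0.0318 for Slc25a20, -0.0152 for Slc25a22 and -0.11 for Slc25a42, and ERTU in Gαq to -0.10 for Slc25a42. Those libraries, all on CD, were the lowest of their groups in these genes, so lower values follow from leaving them out. The interaction of Slc25a12 ran from -0.13 to 0.0226 with 1 library left out, turning above 0 without WT CD library 5 (0.0226) or WT ERTU library 11 (0.00218).

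The ratio of Slc25a22 to Slc25a18 by genotype passed with the variance-stabilized values (-0.93, adjusted p = 0.000756, exact permutation) and with medians (-0.96, adjusted p = 0.0476), and ran from -0.97 to -0.73 with 1 library left out. With Slc25a18 at a mean raw count of 2.39 and under the filter on low counts, this ratio cannot show a shift between paralogs. The ratio of Slc25a5 to Slc25a4 ran from 0.20 to 0.28, passing in 4 of 18 fits, and that of Slc25a36 to Slc25a33 from 0.38 to 0.60, passing in 2. For diet, Slc25a13 to Slc25a12 turned from -0.08 to 0.00939 with medians. The causes were not tested.

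No paired analysis was possible because column numbers run across all 18 libraries, so no number recurs in another group.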

Other observations

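Carriers differed in how tightly they were held within groups. The within-group SD of log2 CPM had a median of 0.199 over the 39 members. It was highest for Slc25a34 (0.58), Slc25a29 (0.50), Slc25a1 (0.45) and Slc25a42 (0.40), and lowest for Slc25a51 (0.08), Slc25a23 (0.11) and Slc25a46 (0.11). Without the 4 libraries low in Pdk4, a choice made after seeing the data, the median was 0.187, and the values became 0.33 for Slc25a34, 0.38 for Slc25a29, 0.45 for Slc25a1 and 0.19 for Slc25a42. Slc25a1 (0.45) and Slc25a33 (0.45) were then the highest, and Slc25a10 (0.07), Slc25a23 (0.08) and Slc25a51 (0.09) the lowest.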
